A study of Mus musculus with 9 samples.

Results

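The transcripts described here are those of 9 transporter genes of the liver that move organic ions, bile constituents and drugs across the hepatocyte membrane. They were chosen by name from the gene table of a study of MIF-2 in livers of atherosclerosis-prone mice, and are 9 of 27179 genes counted. The 5 uptake members carry their substrates in from blood across the sinusoidal membrane (Slco1a1, Slco1a4, Slco1b2, Slco2b1 and Slc22a7). The other members, Abcc2, Abcc3, Abcb4 and Abcg2, pump or flip them out, into bile or back into blood. All 9 members were present in the table and all 9 passed the filter on low counts. The table lists them by Entrez identifier, 28248 for Slco1a1, 28250 for Slco1a4, 28253 for Slco1b2, 101488 for Slco2b1, 108114 for Slc22a7, 12780 for Abcc2, 76408 for Abcc3, 18670 for Abcb4 and 26357 for Abcg2.

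The livers came from female mice on the C57BL/6 background whose high-fat diet (HFD) began at 8 weeks of age and lasted 12 weeks. One group carried the Apoe deletion alone (Apoe-/-, which the labels call WT, 5 libraries). The other carried it together with a deletion of Mif-2 in every cell from conception (Mif-2-/-Apoe-/-, called DKO, 4 libraries), so no library had an intact Apoe gene. Each library was made by the Smart-seq2 protocol from RNA of several frozen sections, each 8 µm thick. The design asks how loss of Mif-2, the gene listed in the table as Ddt, changes liver transcripts in an Apoe-deficient background. The labels do not tie each library to 1 mouse, and there are more Apoe-/- libraries than mice per group in the methods, so p-values measure the spread between these libraries.

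Hepatocytes take up bile acids, bilirubin, steroid conjugates and many drugs from sinusoidal blood through solute carriers of the Slco (OATP) and Slc22 families. After conjugation, ATP-driven pumps of the ABC family export the products. Pumps of the canalicular membrane, which faces bile, include Abcc2, Abcg2 and the phospholipid flippase Abcb4, whereas Abcc3 sits on the membrane facing blood. Several of these genes respond to the nuclear receptors CAR, PXR and FXR, and in mouse liver Slco1a1 is known as a gene of male livers and Slco1a4 as one of female livers.

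Total counts ranged from 2318148 to 10764182 per library. Ddt was measured at 233 to 972 CPM in Apoe-/- and at 2.51 to 5.49 CPM in Mif-2-/-Apoe-/- libraries, as labelled, where CPM is the usual count scaled to depth, here over the tested genes and after TMM normalization. The 16 hepatocyte markers in the table, Alb and Ttr among them, were counted in every library, and their summed level ran from 98880 to 320851 CPM in Apoe-/- and from 84176 to 274790 CPM in Mif-2-/-Apoe-/- libraries. One library of each genotype stood apart from its group. The 10 most abundant genes, which include Alb, Apoa1 and Ttr, held 20.5 to 23.7% of the counts in Apoe-/- libraries 1 to 4 but 14.7% in library 5, and 12.5 to 17.0% in Mif-2-/-Apoe-/- libraries 1, 3 and 4 but 26.3% in library 2. The fold change of each of the 9 transporters is therefore also given without these 2 libraries. That comparison leaves a high share in 1 genotype and a low share in the other, so share and genotype cannot be told apart in it.

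None of the 9 transporters passed the test between genotypes. With edgeR's quasi-likelihood test and Benjamini-Hochberg adjustment over 16860 genes, 0 of 9 had an adjusted p under 0.05, and 0.130% of all genes did. DESeq2 called 0 of 9 as well, beside 5.27% of the genes to which it gave an adjusted p. At an unadjusted edgeR p under 0.05, 2 of 9 were higher in Mif-2-/-Apoe-/- livers, Slco1a4 and Abcc2, where 8.99% of all genes were, and 0 of 9 were higher in Apoe-/- livers, where 6.52% were. No member separated the genotypes in CPM, while 4.26% of all genes did. The median log2 fold change of the 9, given throughout as Apoe-/- over Mif-2-/-Apoe-/-, was -0.19, and that of all genes tested was -0.17. Without the 2 libraries that stood apart, Slco1a4, Slco1b2 and Abcc2, 3 of 9, were higher in Mif-2-/-Apoe-/- livers at an unadjusted edgeR p under 0.05, where 13.8% of all genes were, and Abcg2 was the 1 of 9 higher in Apoe-/- livers, where 11.6% were. In RNA of whole sections, fewer cells of a type and less RNA per cell cannot be told apart.

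**Figure D1:**
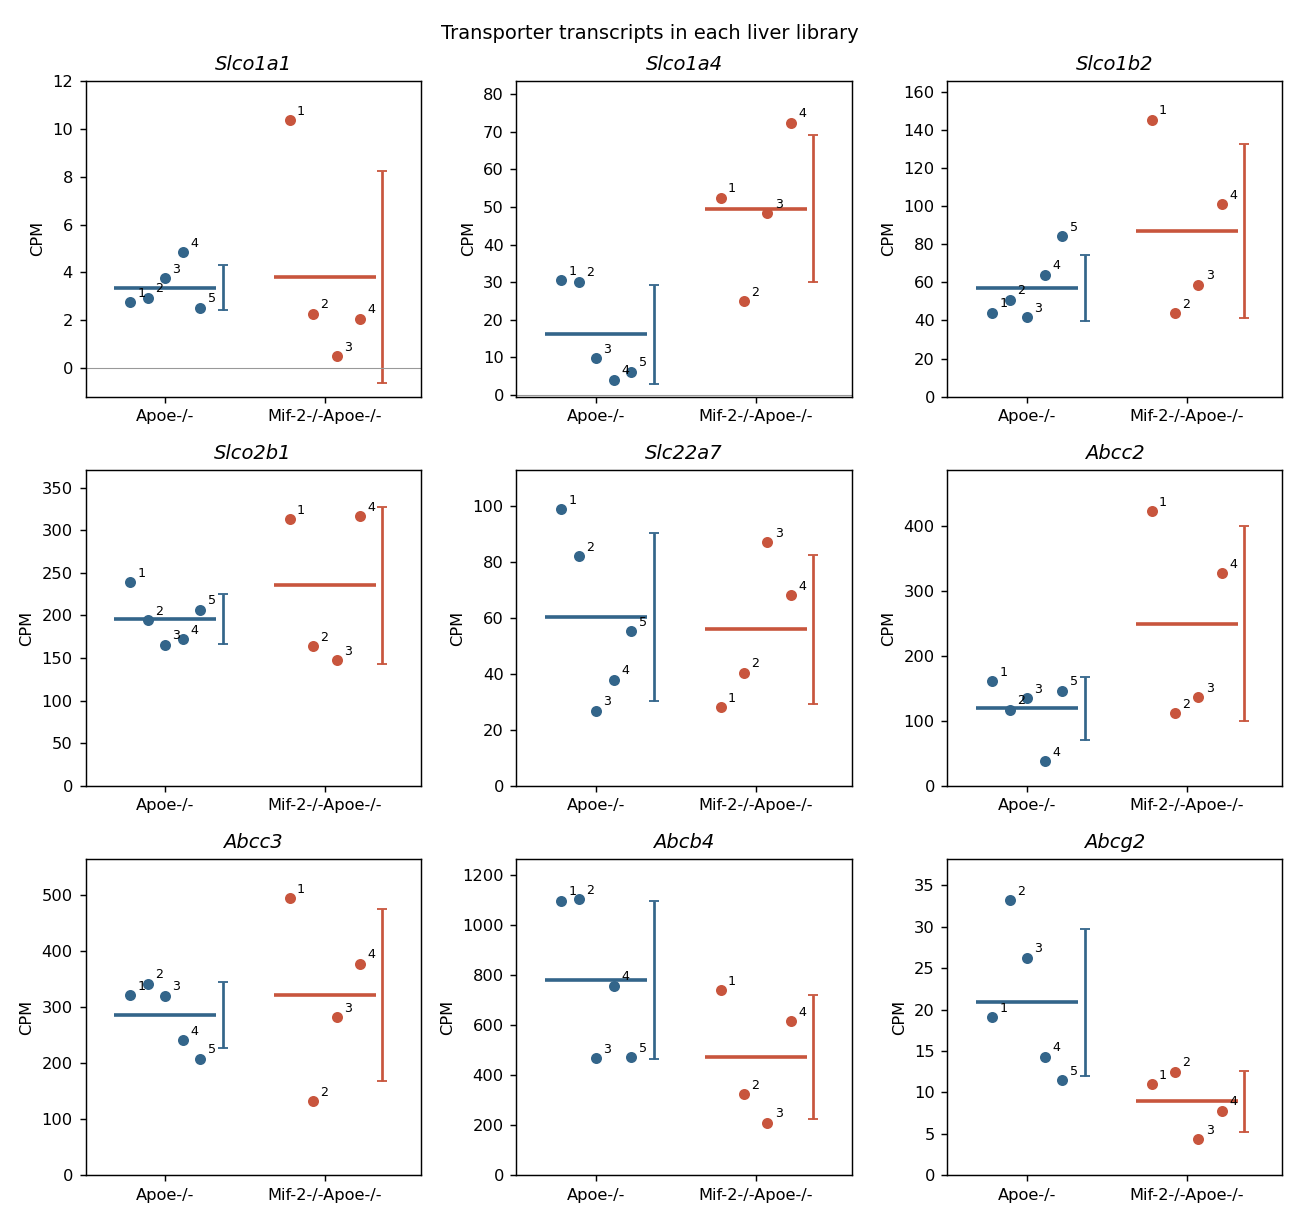
Level of each transporter in CPM (linear axis) in the 5 Apoe-/- (blue) and 4 Mif-2-/-Apoe-/- libraries (red), with library numbers beside the points, the group mean as a line and 1 SD as a bar. In every panel the points of the genotypes overlap, with Slco1a4 and Abcg2 coming nearest to separation.

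Slco1a4, Slco1a1 and Slco1b2 are neighbours in 1 cluster of transporter genes on chromosome 6 (GRCm38 coordinates, GENCODE annotation). Slco1b2 lies at chr6:141629518-141686646 on the plus strand, Slco1a4 at chr6:141805440-141856199 and Slco1a1 at chr6:141907282-141946962, both on the minus strand. Their shared ancestry leaves little identical sequence. Of the 100-base stretches of Slco1a4 transcripts 0.640%, and of those of Slco1a1 0.614%, also occur in any other gene, with the most matches in Slco1a5. That paralog, looked at after its values were seen, had counts in 1 of the Apoe-/- and 1 of the Mif-2-/-Apoe-/- libraries, at 0.274 and 9.07 CPM.

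The windows around the starts of Slco1a4 and Slco1a1 are shown because these neighbouring paralogs had unlike values, and they show what the same kind of window holds in each. They run from 250 bases before to 50 bases after the start in RefSeq's table for GRCm38.p6, on the minus strand at chr6:141856171-141856470 for Slco1a4 and chr6:141946913-141947212 for Slco1a1. Capitals mark matches on either strand to 3 sets of letters. These are the promoter box CCAAT, the hexamer AGGTCA that nuclear receptors read, and the box TATAAA of many starts.
Slco1a4: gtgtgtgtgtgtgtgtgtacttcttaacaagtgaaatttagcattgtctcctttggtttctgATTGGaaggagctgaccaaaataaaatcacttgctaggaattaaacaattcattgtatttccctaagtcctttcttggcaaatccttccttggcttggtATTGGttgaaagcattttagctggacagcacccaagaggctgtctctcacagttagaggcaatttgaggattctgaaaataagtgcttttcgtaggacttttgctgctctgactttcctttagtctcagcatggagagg
Slco1a1: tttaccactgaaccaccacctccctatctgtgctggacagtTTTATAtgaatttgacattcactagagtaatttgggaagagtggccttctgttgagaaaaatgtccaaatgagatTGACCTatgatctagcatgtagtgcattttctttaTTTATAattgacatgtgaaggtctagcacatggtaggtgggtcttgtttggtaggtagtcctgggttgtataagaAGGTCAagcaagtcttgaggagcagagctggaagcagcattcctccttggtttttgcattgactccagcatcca
The Slco1a4 window held CCAAT in reverse at positions -188 and -89 from the start, and neither AGGTCA nor TATAAA. The Slco1a1 window held AGGTCA in reverse at -134 and forward at -24, TATAAA in reverse at -209 and -99, and no CCAAT. Across the 32851 promoter windows of the table, 37.4% hold CCAAT, 16.3% AGGTCA and 13.6% TATAAA, so these letters are common.

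Slco1a4 encodes Oatp1a4, a carrier of bile acids, steroid conjugates and cardiac glycosides that is induced through PXR and CAR. Its level was 30.6, 30.2, 9.86, 4.03 and 6.20 CPM in Apoe-/- libraries 1 to 5, and 52.5, 25.0, 48.4 and 72.5 CPM in Mif-2-/-Apoe-/- libraries 1 to 4. Of the 4 Mif-2-/-Apoe-/- libraries, 3 lay above every Apoe-/- library, and the remaining one, library 2, fell between Apoe-/- libraries 2 and 3. The group means, here and below with Apoe-/- first, were 16.2 ± 13.1 against 49.6 ± 19.5 CPM (SD, n = 5 and 4), 3.07-fold apart. Its fold change on the log2 scale was -1.61 ± 0.62 (SE) with an adjusted p of 0.242 in edgeR and 0.0951 in DESeq2. Without the 2 libraries that stood apart it was -1.52 ± 0.63 (edgeR, adjusted p = 0.150), and with the abundant-gene share as a covariate -1.40 ± 0.72 (edgeR, adjusted p = 0.524). A two-sided exact permutation test on log2 CPM gave p = 0.0476, not adjusted for the 9 members so tested, where 0.00794 is the smallest p that 126 arrangements allow. The Apoe-/- group itself was split, since libraries 1 and 2 held about the same level and libraries 3 to 5 less than 10 CPM.

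Slco1a1 encodes Oatp1a1, another carrier of organic anions and steroid conjugates. Its level was 2.74, 2.95, 3.76, 4.84 and 2.52 CPM in the Apoe-/- libraries and 10.4, 2.27, 0.504 and 2.06 CPM in the Mif-2-/-Apoe-/- libraries. Mif-2-/-Apoe-/- library 1 was above all others and the remaining 3 of its group were below every Apoe-/- library. The lowest of them, library 3, rested on 2 counts, under the floor of 3 counts used as the detection limit. The log2 fold change was -0.19 ± 1.0 (edgeR, adjusted p = 0.953) and was 1.06 without Mif-2-/-Apoe-/- library 1 (edgeR, adjusted p = 0.711), so its direction rested on that library. It was -0.16 without the 2 libraries that stood apart, and 0.021 with TMMwsp, another way to scale the libraries.

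Slco1b2 encodes the liver-specific Oatp1b2, which takes up bilirubin, bile acids and statins. It was measured at 44.0, 50.8, 41.8, 63.9 and 84.0 CPM in Apoe-/- and at 145, 43.7, 58.7 and 101 CPM in Mif-2-/-Apoe-/- libraries. Mif-2-/-Apoe-/- libraries 1 and 4 were the highest of the 9, and libraries 2 and 3 lay within the Apoe-/- range. In edgeR the log2 fold change came to -0.62 ± 0.40 (adjusted p = 0.481). It was -0.91 without the 2 libraries that stood apart, -0.22 with the abundant-gene share as a covariate and -0.26 without Mif-2-/-Apoe-/- library 1, none of them called by edgeR.

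Slco2b1 (chr7:99657804-99711340, minus strand) encodes Oatp2b1, a carrier of sulfated steroids. It had the narrowest spread of the 9, with 239, 195, 166, 172 and 207 CPM in Apoe-/- and 313, 164, 147 and 317 CPM in Mif-2-/-Apoe-/- libraries, 2.15-fold between the highest and the lowest. Mif-2-/-Apoe-/- libraries 1 and 4 were above the Apoe-/- range and libraries 2 and 3 below it. Its log2 fold change was -0.27 ± 0.31 (edgeR, adjusted p = 0.735), -0.32 without the 2 libraries that stood apart and -0.09 without Mif-2-/-Apoe-/- library 4.

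Slc22a7 (chr17:46432183-46438457, minus strand) encodes Oat2, which exchanges organic anions and cyclic nucleotides. Its level was 98.8, 81.9, 26.8, 37.9 and 55.2 CPM in Apoe-/- and 28.1, 40.3, 86.9 and 67.9 CPM in Mif-2-/-Apoe-/- libraries. High and low libraries occurred in both genotypes, and the group means were 60.1 ± 30.0 against 55.8 ± 26.6 CPM (SD, n = 5 and 4). The fitted log2 fold change was 0.11 ± 0.46 (edgeR, adjusted p = 0.939), and it turned to -0.12 without Mif-2-/-Apoe-/- library 1 and to -0.07 without Apoe-/- library 1. Without the 2 libraries that stood apart it was 0.10.

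Among the efflux genes, Abcc2 and Abcb4 both act at the canalicular membrane but had fold changes of opposite sign, neither of which passed the test. Abcg2, also canalicular, had the sign of Abcb4 and did not pass either. Abcc2 lies at chr19:43782192-43840740 and Abcb4 at chr5:8893717-8959231, both on the plus strand. The windows around their starts are shown to set these 2 genes side by side, on the plus strand at chr19:43782058-43782357 for Abcc2 and chr5:8893471-8893770 for Abcb4 (RefSeq, GRCm38.p6). Capitals mark, beside the letters above, TGACNNNGC, the core of the antioxidant response element, and GCGTG, the core read by the aryl hydrocarbon receptor.
Abcc2: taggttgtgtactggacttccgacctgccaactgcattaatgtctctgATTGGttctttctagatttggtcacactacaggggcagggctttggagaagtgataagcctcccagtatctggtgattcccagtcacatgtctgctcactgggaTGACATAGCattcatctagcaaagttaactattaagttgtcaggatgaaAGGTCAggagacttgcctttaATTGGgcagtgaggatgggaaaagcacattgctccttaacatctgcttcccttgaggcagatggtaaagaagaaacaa
Abcb4: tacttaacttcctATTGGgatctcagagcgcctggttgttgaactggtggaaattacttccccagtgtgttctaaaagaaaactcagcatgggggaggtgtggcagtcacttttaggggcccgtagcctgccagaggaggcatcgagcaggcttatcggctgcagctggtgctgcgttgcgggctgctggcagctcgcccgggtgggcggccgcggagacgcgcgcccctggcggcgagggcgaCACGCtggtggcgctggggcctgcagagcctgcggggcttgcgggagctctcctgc
The Abcc2 window held AGGTCA at -49, TGACNNNGC at -98, and CCAAT in reverse at -202 and -28. The Abcb4 window held GCGTG in reverse at -6 and CCAAT in reverse at -237, and no AGGTCA. Of all windows, 12.4% hold TGACNNNGC and 32.4% GCGTG. On both strands, 6 further motifs were searched: GTTAAT, TTCNNNGAA, the D-box TTATGTAA, and the pairs of AGGTCA named DR1, DR4 and IR1, and none of these 6 occurred in the 4 windows printed here, whereas 7.10%, 8.30%, 0.938%, 0.0396%, 0.0152% and 0.00913% of all windows hold them.

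Abcc2 encodes MRP2, the canalicular pump for bilirubin glucuronides and glutathione conjugates. Its level was 160, 117, 134, 37.5 and 146 CPM in Apoe-/- libraries 1 to 5 and 422, 112, 137 and 327 CPM in Mif-2-/-Apoe-/- libraries 1 to 4. Mif-2-/-Apoe-/- libraries 1 and 4 were above every Apoe-/- library, libraries 2 and 3 were within the range of the Apoe-/- libraries, and Apoe-/- library 4 was the lowest of the 9. The group means were 119 ± 48.3 against 249 ± 150.0 CPM (SD, n = 5 and 4), 2.09-fold apart. On the log2 scale the fold change was -1.07 ± 0.46 (SE) with an adjusted p of 0.287 in edgeR and 0.187 in DESeq2. It was -1.30 ± 0.46 without the 2 libraries that stood apart (edgeR, adjusted p = 0.0950), -0.64 ± 0.44 with the abundant-gene share as a covariate (edgeR, adjusted p = 0.686) and -0.69 without Mif-2-/-Apoe-/- library 1 (edgeR, adjusted p = 0.548). The exact permutation test gave p = 0.206.

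Abcb4 encodes MDR2, the flippase that delivers phosphatidylcholine to bile. Its level was 1096, 1103, 468, 757 and 470 CPM in Apoe-/- and 739, 323, 208 and 616 CPM in Mif-2-/-Apoe-/- libraries. In Apoe-/-, 3 of the 5 libraries were above every Mif-2-/-Apoe-/- library, and Mif-2-/-Apoe-/- libraries 2 and 3 were below every Apoe-/- library. The group means were 779 ± 316 against 472 ± 247 CPM (SD, n = 5 and 4). Its log2 fold change was 0.72 ± 0.42 (edgeR, adjusted p = 0.422) and 0.83 ± 0.41 without the 2 libraries that stood apart (edgeR, adjusted p = 0.231). Without Mif-2-/-Apoe-/- library 3 it was 0.48. Of its 100-base stretches, 0.288% also occur in any other gene, with the most matches in Abcb1a. That gene was measured at 1.14 CPM on average in Apoe-/- and 3.46 CPM in Mif-2-/-Apoe-/- libraries.

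Abcg2 (chr6:58584523-58695676, plus strand) encodes BCRP, the canalicular pump for urate, sulfate conjugates and many drugs. Its level was 19.1, 33.2, 26.3, 14.3 and 11.4 CPM in Apoe-/- and 11.0, 12.5, 4.28 and 7.77 CPM in Mif-2-/-Apoe-/- libraries. In Apoe-/-, 4 of the 5 libraries were above every Mif-2-/-Apoe-/- library, and library 5 lay between Mif-2-/-Apoe-/- libraries 1 and 2. The group means were 20.9 ± 8.92 against 8.88 ± 3.64 CPM (SD, n = 5 and 4), 2.35-fold apart. The log2 fold change was 1.24 ± 0.61 (SE) with an adjusted p of 0.349 in edgeR and 0.125 in DESeq2, and the exact permutation test gave an unadjusted p of 0.0317. For the 7 members other than Slco1a4 and Abcg2 that exact test gave 0.143 to 0.960. The log2 fold change of Abcg2 was 1.69 ± 0.68 without the 2 libraries that stood apart (edgeR, adjusted p = 0.141). With the abundant-gene share as a covariate it was 0.99 ± 0.68 (edgeR, adjusted p = 0.684). The expression of this gene is not limited to hepatocytes, and the cell type behind its counts was not tested.

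Abcc3 (chr11:94343295-94392997, minus strand) encodes MRP3, which returns glucuronides to blood across the basolateral membrane. It was measured at 321, 341, 320, 240 and 207 CPM in Apoe-/- and at 494, 131, 282 and 377 CPM in Mif-2-/-Apoe-/- libraries. The Mif-2-/-Apoe-/- libraries took the highest places, with 1 and 4, and the lowest, with 2. Its log2 fold change was -0.17 ± 0.36 (edgeR, adjusted p = 0.863), and it was 0.22 with the abundant-gene share as a covariate, 0.041 with TMMwsp scaling and 0.11 without Mif-2-/-Apoe-/- library 1. Without the 2 libraries that stood apart it was -0.23.

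**Figure D2:**
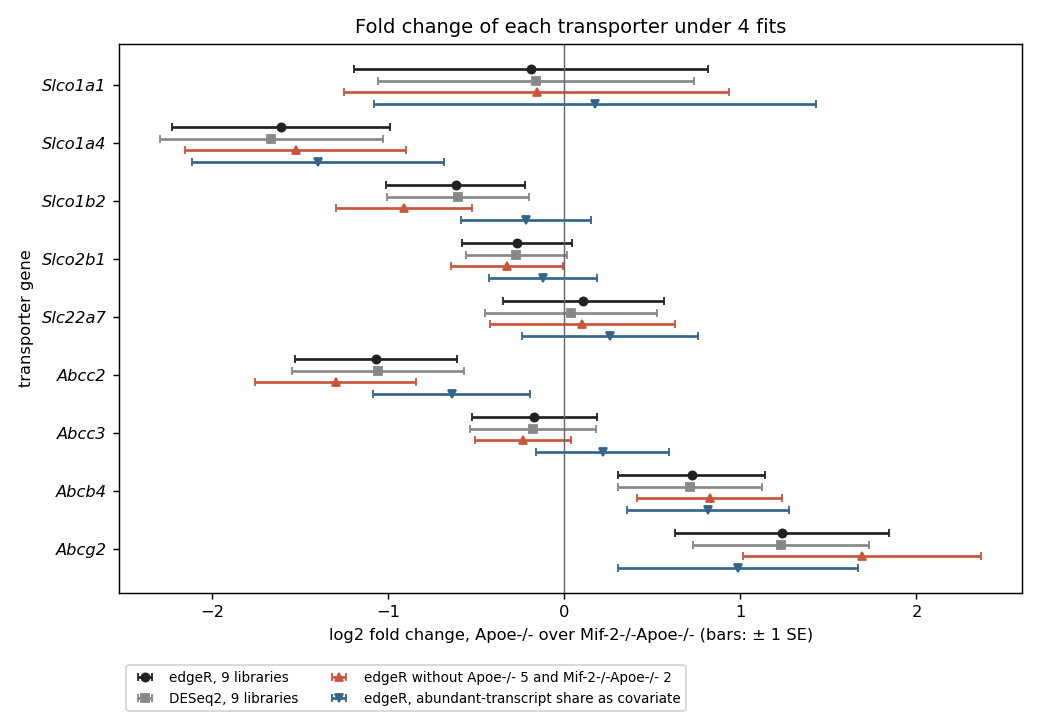
Log2 fold change of each transporter, Apoe-/- over Mif-2-/-Apoe-/- (x axis, bars of 1 SE), by edgeR on all 9 libraries (black), DESeq2 (grey), edgeR without the 2 libraries that stood apart (red) and edgeR with the abundant-gene share as a covariate (blue). Slco1a4 lies between -1.66 and -1.40 and Abcb4 between 0.72 and 0.83 in these 4 fits, none of which scales to hepatocyte markers, while Slco1a1 and Abcc3 cross 0.

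Set against the abundant-gene share, Slco1a4 separated the genotypes only among the libraries with a low share. Among libraries with a low share, it was 6.20 CPM in Apoe-/- library 5 and 48.4 to 72.5 CPM in the 3 Mif-2-/-Apoe-/- libraries. Among those with a high share, Mif-2-/-Apoe-/- library 2 had 25.0 CPM, inside the range of 4.03 to 30.6 CPM of the 4 Apoe-/- libraries. Abcc2 was 146 CPM against 137 to 422 CPM at a low share, and 37.5 to 160 CPM against 112 CPM at a high share, so each lone library lay inside the range of the other genotype. For Abcb4, Mif-2-/-Apoe-/- library 2 was below all 4 Apoe-/- libraries of high share, but Apoe-/- library 5 lay inside the 208 to 739 CPM of its counterparts. Abcg2 was higher in Apoe-/- on both sides, with 11.4 CPM against 4.28 to 11.0 CPM at a low share and 14.3 to 33.2 CPM against 12.5 CPM at a high share. With 1 library of a genotype on each side, no test within them was made. When counts were scaled to the summed hepatocyte markers instead, the permutation p was 0.0476 for Slco1a4 and 0.159 for Abcg2, and the difference in mean log2 level of Abcb4 went from 0.79 to 0.16 (exact permutation p = 0.730). This scaling is not separate from the abundant-gene share, since Alb, Apoa1, Apoa2, Apoc3, Hpx and Ttr belong to both gene sets. The marker sum was lowest of its genotype in Apoe-/- library 5 and highest of its genotype in Mif-2-/-Apoe-/- library 2.

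**Figure D3:**
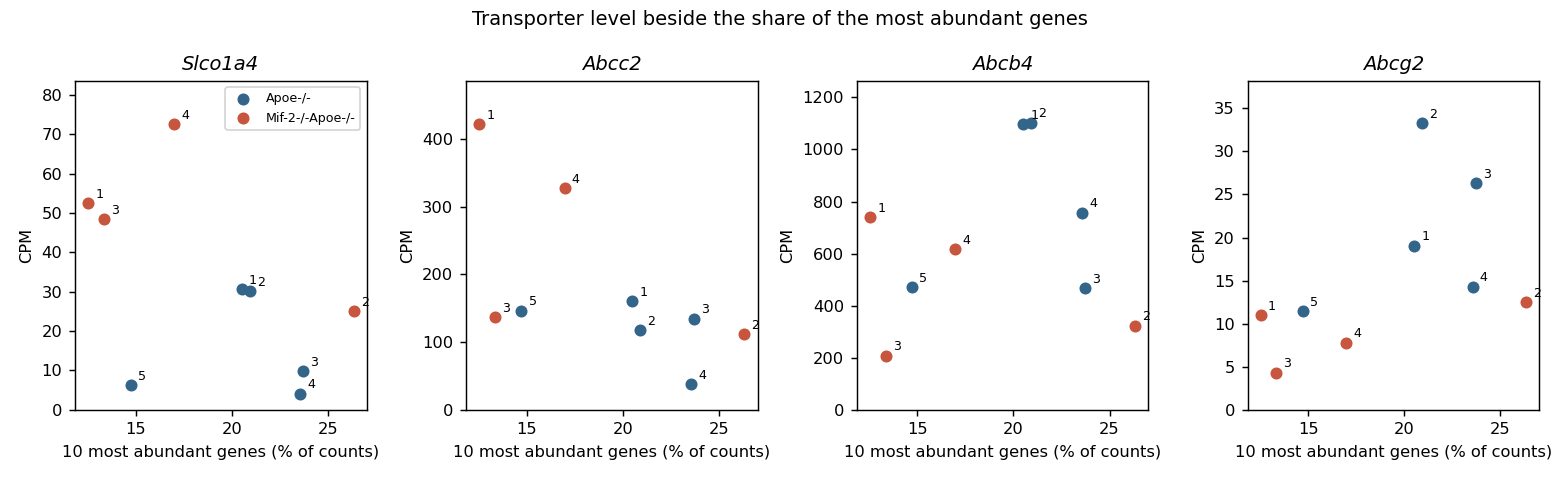
Level of Slco1a4, Abcc2, Abcb4 and Abcg2 in CPM (y axis) against the percentage of all counts held by the 10 most abundant genes (x axis), 1 point per library with its number, Apoe-/- in blue and Mif-2-/-Apoe-/- in red. Apoe-/- library 5 sits at 14.7% among the Mif-2-/-Apoe-/- libraries, and Mif-2-/-Apoe-/- library 2 at 26.3% beyond the Apoe-/- libraries.

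Levels of different genes were compared per kb of exon, the summed length of all annotated exons. In Apoe-/- livers Abcb4 was first with a mean of 83.0 ± 33.7 CPM per kb (SD, n = 5), ahead of Abcc3 with 50.2 ± 10.3. Slco2b1 followed with 32.8 ± 4.94, Slc22a7 with 28.6 ± 14.3, Abcc2 with 14.0 ± 5.66 and Slco1b2 with 11.5 ± 3.54 CPM per kb. Abcg2 with 2.56 ± 1.09, Slco1a4 with 2.52 ± 2.05 and Slco1a1 with 0.637 ± 0.180 CPM per kb closed the order. The only neighbours in this order whose ranges over the libraries did not overlap were Slco1b2 and Abcg2. In Mif-2-/-Apoe-/- livers the order of means began with Abcc3 at 56.3 ± 26.9 CPM per kb (SD, n = 4), followed by Abcb4 at 50.3 ± 26.4. Abcc3 was above Abcb4 in 3 of these 4 libraries. The mean of Abcc2, 29.2 ± 17.6, stood above that of Slc22a7, but Abcc2 was the higher in only 2 of 4 libraries. There the neighbours whose ranges did not overlap were Slco1a4, at 7.73 ± 3.04 CPM per kb, and Abcg2, at 1.09 ± 0.447. Slco1a4 was above Abcg2 per kb in 4 of 4 Mif-2-/-Apoe-/- libraries, and Abcg2 above Slco1a4 in 3 of 5 Apoe-/- libraries. Summed over the 5 uptake members, the level was 332 ± 66.6 CPM in Apoe-/- against 432 ± 145 CPM in Mif-2-/-Apoe-/- livers, and over the 4 efflux members 1205 ± 365 against 1051 ± 533 CPM (SD, n = 5 and 4).

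**Figure D4:**
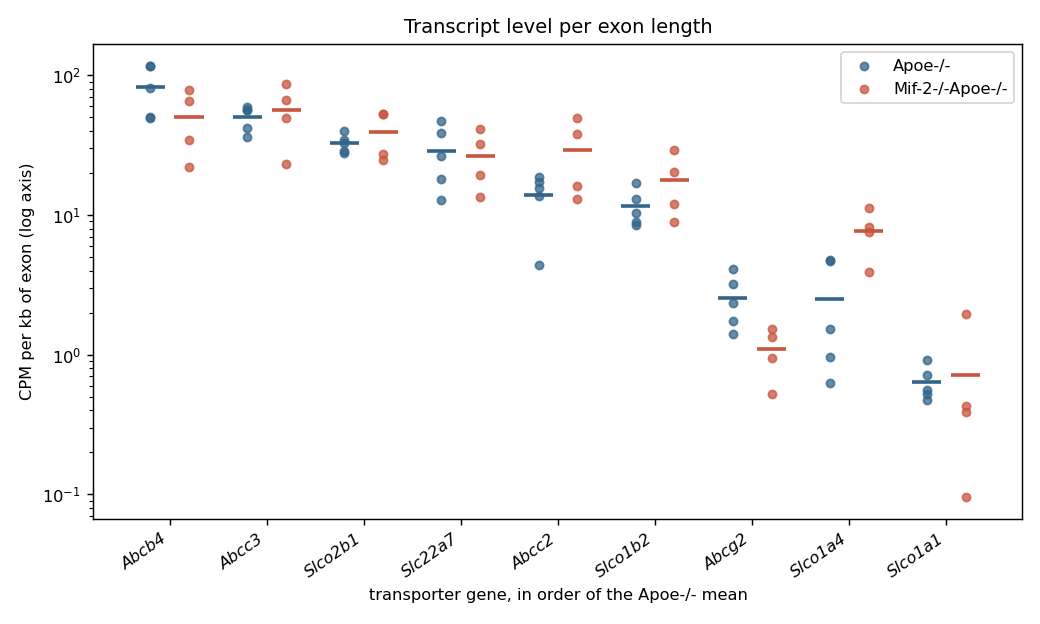
Level of each transporter in CPM per kb of exon (log axis) in Apoe-/- (blue) and Mif-2-/-Apoe-/- libraries (red), with the group means as lines and genes in the order of the Apoe-/- mean. Abcg2 and Slco1a4, at 2.56 and 2.52 CPM per kb in Apoe-/-, are at 1.09 and 7.73 in Mif-2-/-Apoe-/- livers.

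Ratios between members within a library do not depend on its scaling. Of the 36 pairs of members, 5 had ratios that did not overlap between the genotypes, and of the 780 pairs among 40 other transporters counted in every library with a mean of at least 1 CPM, 45 (5.77%) did. Pairs share genes and libraries, so no test was made, and the 5 were picked out after their values were seen. Of these, 4 had Slco1a4 as numerator, over Abcb4, Abcc3, Abcg2 or Slc22a7. The ratio of Slco1a4 to Abcb4 counts was 0.0279, 0.0273, 0.0211, 0.00533 and 0.0132 in Apoe-/- libraries 1 to 5 and 0.0710, 0.0773, 0.232 and 0.118 in Mif-2-/-Apoe-/- libraries 1 to 4. The libraries that stood apart by abundant-gene share, Apoe-/- library 5 and Mif-2-/-Apoe-/- library 2, were on the side of their genotype in this ratio. The fifth pair had an Abcc2 to Abcb4 ratio of 0.0496 to 0.311 in Apoe-/- and 0.346 to 0.655 in Mif-2-/-Apoe-/- libraries. The gap there lay between Apoe-/- library 5 and Mif-2-/-Apoe-/- library 2. For Abcg2, also canalicular, the Abcc2 to Abcg2 ratio overlapped, with 2.62 to 12.8 in Apoe-/- and 8.95 to 42.1 in Mif-2-/-Apoe-/- libraries.

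Of 60 other uptake and efflux transporters, not all of them known from hepatocyte membranes, 52 were tested. Both edgeR and DESeq2 called 0 of them, beside 0.130% of all genes in edgeR and 5.27% of those with an adjusted p in DESeq2. At an unadjusted edgeR p under 0.05, 4 of the 52 were higher in Apoe-/- livers, beside 6.52% of all genes, and 7 in the other genotype, beside 8.99%. Their median log2 fold change was -0.45, and that of all genes -0.17. Among the uptake carriers, Slc22a8 and Slc29a2 were both highest in Mif-2-/-Apoe-/- library 3. Slc22a8, an organic anion transporter known from kidney, was at 41.8 CPM in Mif-2-/-Apoe-/- library 3 and at 2.84 CPM or less in all other libraries. It had 1 count in the Apoe-/- group as a whole and passed the filter only through the other genotype, so no p is given for it. Slc29a2, a nucleoside carrier, was at 111 CPM in the same library and at 11.4 to 21.0 CPM in the rest of its group. The Apoe-/- libraries held 1.01 to 18.0 CPM, and 4 of these 5 lay below every Mif-2-/-Apoe-/- library (edgeR, adjusted p = 0.183). Without the 2 libraries that stood apart, edgeR called 3 of these other transporters, Slc29a2 among them, where 8.71% of all genes were called. It still called 0 of the 9 members.

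Among the exporters, the smallest p belonged to Slc47a1, Abcg8 and Abcc6. Slc47a1, the extruder of organic cations into bile, had means of 148 ± 57.2 CPM in the Apoe-/- group against 316 ± 166 CPM (SD, n = 5 and 4) (edgeR, adjusted p = 0.210). Abcg8, which with Abcg5 exports sterols to bile, had means of 180 ± 63.4 against 99.6 ± 29.8 CPM (SD, edgeR, adjusted p = 0.262). Abcc6, a basolateral relative of Abcc2 and Abcc3, had means of 699 ± 373 against 1441 ± 671 CPM (SD, edgeR, adjusted p = 0.308). Abcb11, the bile salt export pump, and Slc10a1, the sodium-dependent bile acid carrier, were looked at after their values were seen. Abcb11 had a log2 fold change of 0.09 ± 0.36 (edgeR, adjusted p = 0.940) and Slc10a1 one of -0.85 ± 0.34 (edgeR, adjusted p = 0.259).

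Of 32 nuclear receptors and factors that act on such promoters, edgeR called 2, both higher in Mif-2-/-Apoe-/- livers, beside 0.130% of all genes. They were Dbp and Tef, PAR bZIP factors whose levels follow the time of day in liver. Dbp was at 0.806 to 12.7 CPM in Apoe-/- and 179 to 432 CPM in Mif-2-/-Apoe-/- libraries, without overlap (log2 fold change -5.42 ± 0.59, edgeR, adjusted p = 0.000888). Tef was at 32.3 to 140 CPM and 443 to 782 CPM, again without overlap (log2 fold change -2.92 ± 0.43, edgeR, adjusted p = 0.0123). The transporters were measured in the same libraries, and whether the time of tissue collection differed between the groups was not given in the sources used here. Nr1i3, which encodes CAR, was looked at after its values were seen. It was at 231 to 578 CPM in Apoe-/- and at 1881, 354, 1162 and 1465 CPM in Mif-2-/-Apoe-/- libraries 1 to 4, so that only library 2, which stood apart, overlapped (edgeR, adjusted p = 0.136, and 0.00798 in DESeq2).

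A list of 27 genes joined targets of the xenobiotic receptors with genes of the antioxidant response, and the counts do not tell these apart. Of the 27, 26 were tested and edgeR called 0. At an unadjusted edgeR p under 0.05, 9 of them were higher in Apoe-/- livers, where 6.52% of all genes were. In the other direction 2 of them were lower in Apoe-/- livers, where 8.99% of all genes were. DESeq2 called 3 of them higher in Apoe-/- livers and 1 lower, where it called 5.27% of all genes with an adjusted p. Alas1, the first enzyme of haem synthesis, was at 120 to 318 CPM in Apoe-/- and 491 to 1085 CPM in Mif-2-/-Apoe-/- libraries (adjusted p = 0.0897 in edgeR and 0.000242 in DESeq2). Cyp3a11, the classical PXR target, was at 101 to 402 CPM in Apoe-/- and at 40.0 to 175 CPM in Mif-2-/-Apoe-/- libraries (adjusted p = 0.141 in edgeR and 0.0160 in DESeq2). Cyp2c29, another P450 gene of this list, had means of 83.7 ± 40.8 against 31.0 ± 6.05 CPM (SD, n = 5 and 4) (adjusted p = 0.170 in edgeR and 0.0383 in DESeq2).

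Of 10 tested genes for scaffolds and trafficking partners that hold transporters at the membrane, edgeR called 0 and DESeq2 called 1, Bsg. Over all genes, edgeR called 0.130%, and DESeq2 5.27% of those with an adjusted p. The smallest p belonged to Bsg, Msn and Myo5b. Bsg, a chaperone of carriers at the plasma membrane, was at 467 to 994 CPM in Apoe-/- and 262 to 603 CPM in Mif-2-/-Apoe-/- libraries (adjusted p = 0.169 in edgeR and 0.0307 in DESeq2). Msn, a linker of membrane proteins to actin, had means of 20.7 ± 11.4 against 11.3 ± 3.91 CPM (SD, n = 5 and 4) (edgeR, adjusted p = 0.520). Myo5b, a motor of canalicular recycling, had means of 25.5 ± 16.0 against 45.0 ± 31.2 CPM (SD, edgeR, adjusted p = 0.520).

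Marker lists of pericentral hepatocytes and of other cells were measured beside the transporters. The 15 pericentral markers, Cyp2c29 among them, summed to 3269 to 6820 CPM in Apoe-/- and 2359 to 4623 CPM in Mif-2-/-Apoe-/- libraries, and 1 of them, Lgr5, was at 0 in a library. The 10 cholangiocyte markers summed to 98.3 to 319 and 70.0 to 320 CPM, with Epcam, Cldn4, Cftr, Tff2 and Sprr1a at 0 in a library. The 11 endothelial markers summed to 531 to 775 and 258 to 1002 CPM, and the 11 leukocyte markers, with Ptprc, Cd3e, Cd3g, Cd79a and Ms4a1 at 0 in a library, to 35.3 to 57.0 and 50.2 to 135 CPM. The highest leukocyte sum was that of Mif-2-/-Apoe-/- library 3, the library with the highest Slc22a8 and Slc29a2 and the lowest Abcb4 and Abcg2, and its part in these values was not tested.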

How the data were processed

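Per the labels and the methods, RNA of frozen liver sections was amplified by Smart-seq2, and reads were checked with FastQC, trimmed with cutadapt and aligned with HISAT2 to mm10 (tool versions were not given in the sources used here). The authors deposited whole-number counts of reads per gene over its exons, not normalized, for 27179 Entrez identifiers. Symbols were matched to 25275 of them with RefSeq names, and 1 repeated header line was dropped. Smart-seq2 counts reads, not molecules, so the floor of 3 counts (0.279 to 1.29 CPM by total counts, depending on the library) covers counting error only.

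The labels' genotype set the groups. A gene stayed in when 3 or more libraries of a genotype had a count of 1 or more, and the 10 with the highest mean CPM were excluded, leaving 16860 genes, tested with edgeR 4.0.16 (TMM, quasi-likelihood, Benjamini-Hochberg) under R 4.3.3. The SE was taken as the size of the log2 fold change over the root of F. DESeq2 1.42.0 on all genes with a count gave no adjusted p to 9102 of them. Two-sided exact permutation tests used log2(CPM + 0.5). The test was tested on simulated data. Alternatives were other size factors and filters, a replicate block, the abundant-gene share as a covariate, and each library left out. Leaving out 2 libraries by that share was added after seeing the data. Exon lengths came from GENCODE on GRCm38.

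Members and gene lists were chosen with earlier results of these data known. All 9 members are named, with Ddt, every context gene called by edgeR or else the 3 of smallest p with at least 1 CPM, and marker genes at 0, except that 1 gene the rule names is not reported here. The list of 32 factors, 27 targets and 12 partner symbols (10 in the table) and the marker lists give counts and ranges only. Some partners were listed under both an older and a newer symbol. Summed levels in CPM were, in Apoe-/- and Mif-2-/-Apoe-/- libraries, 29364 to 94384 and 28666 to 93348 for periportal, 1296 to 2974 and 1518 to 2086 for Kupffer cell, 642 to 1244 and 789 to 1019 for stellate cell and 99.5 to 320 and 59.6 to 218 for erythrocyte markers (Hgf of the stellate list was at 0 in a library).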

Additional observations from a re-analysis of the deposited data

Results flagged for a closer look

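No level of a member stood apart from the rest of its genotype by Dixon's criterion. Of the other genes named, Slc22a8 did, with 41.8 CPM in Mif-2-/-Apoe-/- library 3 against 0 to 2.84 CPM in the rest of its group, and with 0.194 CPM, which is 1 count, in Apoe-/- library 5 where the others were at 0. Slc29a2 did in the same libraries, with 111 CPM against 11.4 to 21.0 CPM and with 18.0 CPM against 1.01 to 5.77 CPM. Cyp3a11 was at 175 CPM in Mif-2-/-Apoe-/- library 2 against 40.0 to 55.9 CPM, and Bsg at 467 CPM in Apoe-/- library 5 against 856 to 994 CPM. Chance flags about 1 in 20 groups.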

How the results depend on the processing

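The count of members called stayed at 0 in edgeR with RLE or TMMwsp factors, without a filter, with edgeR's own filter, with the top 10 genes kept, with the covariate, in the replicate block, with each library left out and in DESeq2. Slco1a4, Slco1b2, Slco2b1, Abcc2, Abcb4 and Abcg2 kept their sign in all 18 of these alternatives, the fit without 2 libraries included. Slco1a1 turned to 0.021 with TMMwsp, 0.59 in the replicate block, 0.17 with the covariate and 1.06 without Mif-2-/-Apoe-/- library 1, Abcc3 to 0.041, 0.049, 0.22 and 0.11 in the same alternatives, and Slc22a7 to -0.07 and -0.12 without library 1 of Apoe-/- or Mif-2-/-Apoe-/-. Scaled to hepatocyte markers, the difference in mean log2 level turned from 0.35 to -0.15 for Slco1a1 and from 0.08 to -0.54 for Slc22a7. That of Abcg2 went from 1.18 to 0.58, and its exact permutation p, not adjusted for the 9 members, from 0.0317 to 0.159. The same scaling moved Abcb4 from 0.79 to 0.16, Slco1b2 from -0.51 to -1.13, Slco2b1 from -0.19 to -0.82, Abcc3 from -0.04 to -0.67, Abcc2 from -1.0 to -1.63 and Slco1a4 from -1.91 to -2.52. Several of these markers are among the 10 most abundant genes, so this scaling is not separate from the abundant-gene share. With 1 library left out, the log2 fold change ran from -0.55 to 1.06 for Slco1a1, from -0.34 to 0.11 for Abcc3 and from -0.12 to 0.41 for Slc22a7. The causes were not tested. TMMwsp moved the median of all genes from -0.17 to 0.00.

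Over all genes, edgeR called 22, and 9 to 262 with 1 library left out, 262 without Mif-2-/-Apoe-/- library 2, 126 without Apoe-/- library 5 and 9 without Apoe-/- library 3. DESeq2 called 739 and edgeR without both libraries 1345. Same-numbered libraries had correlations of 0.12, 0.01, 0.06 and -0.01, and differently numbered ones of -0.18 to 0.26. These values cannot tell whether the numbers pair the libraries. The replicate block called 505 over 4 pairs and the same 8 libraries without it 126. Of the other transporters, edgeR without both libraries called 3, and the replicate block 2, Slc29a2 and Slc22a8. Both were highest in Mif-2-/-Apoe-/- library 3. The call of Slc22a8 is not a result, since it passed the filter only through the genotype where it was high. Of 68 tested receptors, targets and partners, edgeR called 2, beside 0.130% of all genes. With 1 library left out edgeR called 1 to 7, and without both libraries 13, where 8.71% of all genes were called. DESeq2 called 8, beside 5.27% of the genes with an adjusted p, and the replicate block 9, beside 505 of 16215 genes. Depth limits Slco1a1 most, with 2 to 51 counts a library.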
